A study of Mus musculus with 3 samples.

Results

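Antioxidant defence genes, together with those of glutathione metabolism and the metallothioneins, were examined in leptomeningeal cells of the mouse brain. Members were the rows of the count table whose symbol named a glutathione peroxidase (Gpx), peroxiredoxin (Prdx), superoxide dismutase (Sod), glutathione S-transferase (Gst), thioredoxin reductase (Txnrd), Nqo or Hmox enzyme or metallothionein (Mt), plus Cat, Gclc, Gclm, Gsr, Gss, Txn1, Nfe2l2 and Keap1. This gave 57 genes of 46983 in the table. No measured value enters that choice, but the set was put forward with abundances in these libraries already known, so levels are described without a test. The 3 libraries formed 1 group, the pia-enriched fraction of mice given vehicle, made by dissection of the leptomeninges, dissociation and sorting by flow cytometry. The agent the vehicle belonged to, the sorting markers, and the strain, genotype, sex and age of the mice are not given in the sources used here. Nothing says whether the libraries came from separate animals, so the spread between these samples may be technical. The p-values concern only these samples and ask whether a gene varied more between them than genes of like abundance did. A gene that was not called can therefore still differ widely between libraries.

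Cells remove superoxide with superoxide dismutases, and the hydrogen peroxide that results with catalase, glutathione peroxidases and peroxiredoxins. Glutathione is made by glutamate-cysteine ligase and glutathione synthetase, is returned to its reduced form by glutathione reductase, and is joined to electrophiles by glutathione S-transferases. Metallothioneins are small cysteine-rich proteins that bind zinc and copper. Many of these genes are induced by Nrf2 (Nfe2l2), which Keap1 marks for degradation in unstressed cells.

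Gene counts came to between 21002860 and 28704952 per library. Levels are given as CPM, counts relative to the scaled size of each library, and levels of different genes are compared as CPM per kilobase of exon. The 6 fibroblast markers Col1a1, Col1a2, Col3a1, Dcn, Lum and Pdgfra summed to 23467, 29100.2 and 25292 CPM in libraries 1, 2 and 3. Library 1 stood apart in some other marker lists. The 8 macrophage and microglia markers summed to 16.8, 275 and 759 CPM, the 6 choroid plexus markers to 95.4, 3228 and 4921 CPM, and the 6 erythroid markers to 821, 207 and 340 CPM. The 5 lymphocyte markers summed to 2.68, 53.7 and 62.1 CPM. Sums lay closer together for the 6 endothelial markers (82.4, 67.3 and 74.2 CPM) and the 5 arachnoid barrier markers (90.8, 76.5 and 78.5 CPM). Single markers in these lists went opposite ways. Library 1 was highest for 1 and lowest for 3 endothelial markers, and highest for 2 and lowest for 3 arachnoid barrier markers. Among the latter, Krt19 was at 38.5, 19.8 and 13.6 CPM and Dpp4 at 0.81, 7.12 and 6.21 CPM. Library 1 also differed by base composition. With tested genes split into 10 groups by GC content, library 1 minus the mean of libraries 2 and 3 on the log2(CPM + 1) scale had a median of -1.07 in the AT-richest group (median GC 39.9%) and 0.36 in the GC-richest (median GC 59.4%).

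Gpx3, which encodes the secreted glutathione peroxidase of plasma and extracellular fluid, dominated the set. All members held 1.99% ± 0.83 of gene counts (SD, n = 3), with 2.94% in library 1, 1.63% in library 2 and 1.40% in library 3. Without Gpx3 the share was 0.816% ± 0.21. Of the 57 members, 49 had a mean of at least 1 CPM and 24 of at least 100 CPM, which is 86.0% and 42.1% of them. Over all gene rows those shares were 30.2% and 3.90%. The median mean level of the 49 members that passed the filter on low counts was 98.0 CPM, against 17.99 CPM over the 14409 genes that passed, and 39.9 against 3.70 CPM per kilobase. Of the 49, 21 lay in the top 5% of tested genes per kilobase and 7 below the median. Because these are bulk samples, fewer cells of a type and less RNA per cell cannot be told apart. The 8 members that did not pass were Gpx2, Gpx5, Gpx6 and Mt4, with 0 counts in every library, and Gstt4, Gstm3, Gsta1 and Gsta2, with at most 9 counts in any library. A count of 0 allowed up to 0.152, 0.101 and 0.116 CPM in libraries 1, 2 and 3 (3 counts each, counting error only).

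**Figure D1:**
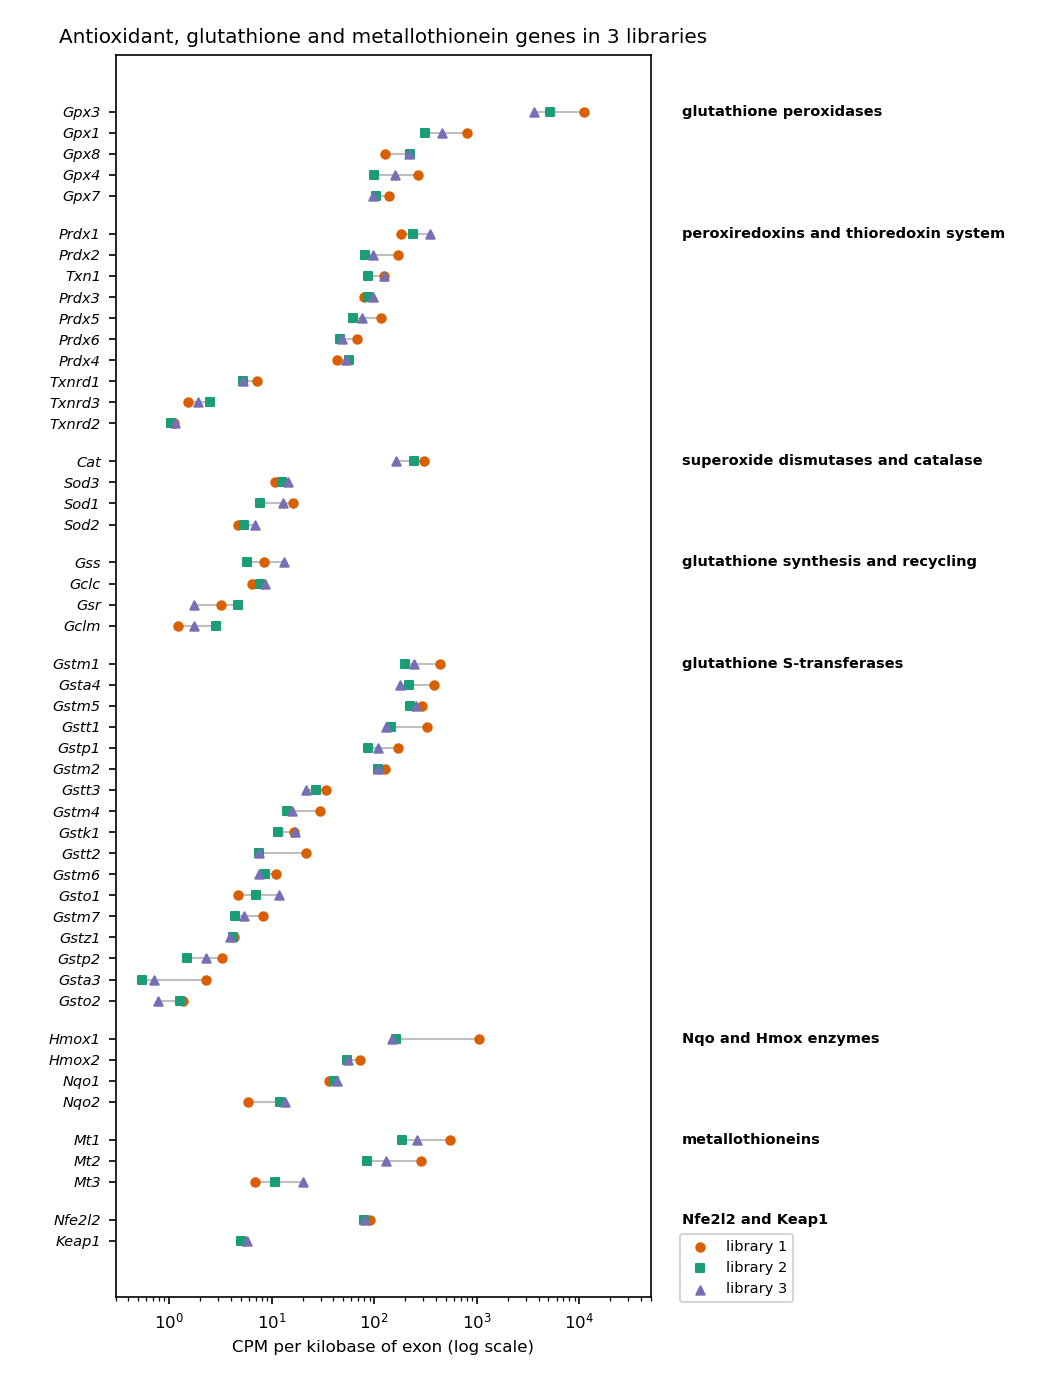
CPM per kilobase of exon (log axis) of the 49 members past the filter, 1 row per gene grouped by role, with 1 point per library and a grey line from the lowest to the highest library. Gpx3 lies to the right of every other member in each library, and Hmox1 has the longest line.

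Per kilobase, few neighbours in the order of levels could be separated. Gpx3 was at 6593 ± 3912 CPM per kilobase (SD, n = 3) and ranked 4 among all genes tested. Gpx1 followed at 525 ± 253, Hmox1 at 458 ± 522, Mt1 at 332 ± 194 and Gstm1 at 293 ± 124 CPM per kilobase. The gap from Gpx3 to Gpx1 exceeded the larger SD of the pair, whereas those between Gpx1 and Txn1, which ranked 18 among the members, did not for any neighbours. Among 48 pairs of neighbours 6 gaps exceeded the larger SD.

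**Figure D2:**
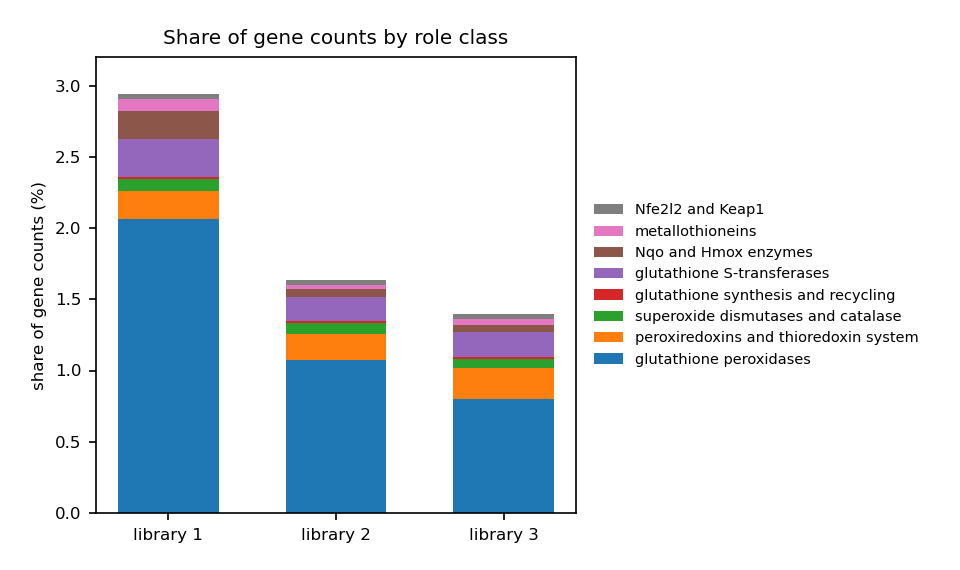
Share of gene counts (%) held by each role class in each library, as stacked bars from 0. The glutathione peroxidases make up most of each bar, and library 1 has the tallest at 2.94%.

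Among the regulators, Nfe2l2 was steady between libraries in CPM. Nfe2l2 (ENSMUSG00000015839.6, chromosome 2, 75675513 to 75704641) had 343, 303 and 305 CPM in the 3 libraries (317 ± 22.3, SD, n = 3), a range of 0.18 on the log2(CPM + 1) scale. Keap1, the adaptor that presents Nrf2 for ubiquitination, was at 25.0, 23.5 and 27.0 CPM, with a range of 0.19. In CPM no library was far from the others for either gene. On that log2 scale library 1 differed from the mean of the others by 0.17 for Nfe2l2 and -0.010 for Keap1. With the trends of GC content and exon length removed, the differences were 0.43 and -0.39, and neither gene was called by edgeR. Per kilobase, Nfe2l2 stood 16.98, 15.97 and 14.01 times above Keap1 in the 3 libraries.

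The glutathione peroxidases fell into 5 detected genes and 3 without a count. Gpx3 (ENSMUSG00000018339.11, chromosome 11, 54902453 to 54910377) reached 19970.2, 9387 and 6501 CPM in libraries 1, 2 and 3. Library 1 was highest, 3.07-fold above library 3, and the mean of 11953 CPM was 7944 CPM without it. Gpx1, the cytosolic enzyme, was at 1160.5, 454 and 655 CPM, and Gpx4, which reduces lipid hydroperoxides in membranes and guards against ferroptosis, was at 465, 171 and 277 CPM. Both were highest in library 1 and lowest in library 2, and their ratio per kilobase stayed between 2.83 and 3.17. Gpx7 and Gpx8, which act in the endoplasmic reticulum, did not share that order. Gpx7 was at 181, 135 and 125 CPM, highest in library 1, and Gpx8 at 134, 233 and 229 CPM, lowest there. The Gpx1, Gpx3, Gpx4 and Gpx7 transcripts had GC contents of 57.2%, 56.0%, 60.2% and 55.5%, and Gpx8 of 44.3%. Library 1 differed from the mean of the others by 1.35, 1.09 and 1.09 for Gpx3, Gpx1 and Gpx4 on the log2(CPM + 1) scale. For Gpx7 and Gpx8 it differed by 0.47 and -0.77. With the trends of GC content and exon length removed, the differences were 0.79, 0.45, 0.50, -0.20 and -0.56 in that order. Gpx2, an enzyme of the gut epithelium, Gpx5 of the epididymis and Gpx6 of the olfactory epithelium had no count.

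Choroid plexus markers moved against Gpx3. All 6 were lowest in library 1, where Gpx3 was highest, and their part in the level of Gpx3 was not tested. The promoter of Gpx3 is shown because this gene alone held more counts than all other members together in libraries 1 and 2. Its 250 bases before the RefSeq start (GRCm38.p6, chr11:54902604-54902853, plus strand) held neither of the motif cores searched, given with the metallothioneins below, so none of its letters is in capitals. This window lies inside the GENCODE span of the gene, which starts at 54902453, and bases before that start were not searched.
Gpx3: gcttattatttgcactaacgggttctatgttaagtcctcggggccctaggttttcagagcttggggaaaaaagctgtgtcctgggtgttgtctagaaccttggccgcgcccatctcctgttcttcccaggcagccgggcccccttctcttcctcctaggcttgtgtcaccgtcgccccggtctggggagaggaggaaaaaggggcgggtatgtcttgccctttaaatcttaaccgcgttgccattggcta

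In the peroxiredoxin and thioredoxin system, which reduces peroxides through cysteine residues, library 3 was highest for some genes and library 1 for others. Prdx1, an abundant cytosolic peroxiredoxin, was at 552, 734 and 1059 CPM in libraries 1, 2 and 3, highest in library 3. Prdx2, known for its abundance in red blood cells, was at 516, 248 and 297 CPM, highest in library 1. Their ratio per kilobase was 1.07, 2.97 and 3.57, respectively. The union of exons is 3043 bases for Prdx1 and 3050 for Prdx2, against 2294 and 1612 in their longest transcripts. Which of the pair is higher in library 1 therefore depends on the length used. The Prdx1 and Prdx2 transcripts had GC contents of 42.3% and 50.4%. On the log2(CPM + 1) scale library 1 differed from the mean of the others by -0.67 for Prdx1 and 0.92 for Prdx2. With the trends of GC content and exon length removed, the differences were 0.13 and 0.79, so the low value of Prdx1 in library 1 did not remain. The 6 erythroid markers, of which 5 passed the filter and those 5 were highest in library 1, moved with Prdx2, and their part in it was not tested. Prdx5 (249, 132 and 162 CPM), of mitochondria, peroxisomes and cytosol, and Prdx6 (325, 223 and 233 CPM), which also has phospholipase activity, were highest in library 1 too.

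Prdx3, the mitochondrial peroxiredoxin, was at 116, 130 and 145 CPM, and Prdx4, which works in the secretory pathway, at 91.6, 120 and 111 CPM. Thioredoxin itself (Txn1) was at 132, 91.7 and 130 CPM. None of the 3 had a range above 0.52 on the log2(CPM + 1) scale. The reductases that recycle thioredoxin ranked 39, 49 and 45 of the 49 members per kilobase, with cytosolic Txnrd1 at 41.6 ± 7.83 CPM, mitochondrial Txnrd2 at 4.84 ± 0.21 CPM and Txnrd3 at 5.59 ± 1.41 CPM (SD, n = 3). Per kilobase, Txn1 exceeded Txnrd1 17.5, 16.8 and 23.5 times in libraries 1, 2 and 3. These ratios depend on the length used. The union of exons is 7086 bases for Txnrd1 against 3622 in its longest transcript, and 1051 in both for Txn1.

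Catalase ranked above the superoxide dismutases per kilobase in every library. Cat, the peroxisomal enzyme that splits hydrogen peroxide, was at 794, 642 and 429 CPM in libraries 1, 2 and 3. Sod2, the mitochondrial manganese enzyme, was at 47.3, 53.3 and 68.5 CPM, and Sod1, the cytosolic copper and zinc enzyme, at 64.7, 30.2 and 51.7 CPM. The extracellular Sod3 was at 40.3, 46.6 and 54.3 CPM. Cat was lowest in library 3, where Sod2 and Sod3 were highest. Per kilobase, Cat exceeded Sod1 18.7, 32.3 and 12.6 times, and Cat ranked 9 among the members, Sod3 30, Sod1 31 and Sod2 40. The rank of Sod2 rests on a union of exons of 10008 bases, against 5861 in its longest transcript. The rank of Sod1 and the ratio of Cat to it rest on 3970 bases for Sod1 and 2613 for Cat. If a shorter Sod1 transcript prevailed, that ratio would be lower and Sod1 would rank higher. Which transcripts were present was not tested.

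Genes of glutathione synthesis and recycling held 0.0104% of gene counts in all. Gss, which joins glycine to complete glutathione, was at 50.3, 34.3 and 78.2 CPM in libraries 1, 2 and 3. The catalytic subunit of glutamate-cysteine ligase, Gclc, was at 24.0, 28.8 and 32.3 CPM, and its modifier subunit Gclm at 7.73, 18.2 and 11.1 CPM. Gsr, glutathione reductase, was at 8.79, 13.0 and 4.82 CPM. No library was highest in all 4 genes: library 2 led for Gclm and Gsr, library 3 for Gss and Gclc. Gclc exceeded Gclm 5.20, 2.64 and 4.86 times per kilobase.

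The glutathione S-transferases numbered 21, of which 17 passed the filter. Together they stood at 2860, 1644 and 1702 CPM in libraries 1, 2 and 3, and the 7 mu class genes (Gstm), all on chromosome 3, supplied 46.0%, 49.7% and 53.9% of those counts. Gstm1 was at 641, 297 and 359 CPM, Gstm5 at 374, 287 and 324 CPM, and Gstm2 at 215, 184 and 184 CPM. Library 1 was highest for all 3. Gsta4, which conjugates the lipid peroxidation product hydroxynonenal, was at 482, 274 and 224 CPM. Gsta3 was at 9.85, 2.35 and 3.12 CPM (a mean of 5.11 CPM, or 2.74 CPM without library 1) and ranked 47 of 49 members per kilobase, and Gsta1 and Gsta2 had 1 count or none in each library.

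Theta, pi and the remaining classes followed. Gstt1 was at 504, 223 and 199 CPM, Gstt3 at 131, 105 and 83.4 CPM, and Gstt2 at 89.5, 31.0 and 31.2 CPM. These genes, all on chromosome 10, were each highest in library 1. Gstp1 was at 267, 136 and 170 CPM. Gstk1 of mitochondria and peroxisomes (21.9 ± 4.29 CPM), Gstz1 of tyrosine breakdown (21.1 ± 1.07 CPM), Gstm4 (34.1 ± 14.5 CPM), Gstm6 (18.01 ± 3.68 CPM) and Gstm7 (9.61 ± 3.15 CPM) ranked between 27 and 42 among the members per kilobase (SD, n = 3). Gsto1 was at 9.40, 14.1 and 23.8 CPM, the reverse of the order of Gstt1, while Gsto2 (2.66 ± 0.74 CPM) ranked 48 and Gstp2 (2.63 ± 1.02 CPM) 44 per kilobase.

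Some of these genes share sequence with near copies, and reads placed at several positions were counted separately from genes. Of all 50-base windows of the longest GENCODE transcript, 62.3% of Gstp1 and 72.6% of Gstp2 also stood in another annotated gene, each other or a pseudogene (Gstp-ps). The share was 61.7% for Gpx4, with a pseudogene as the main partner, 89.7% for Gsta1, 23.2% for Gstm1, 23.8% for Prdx2 and 10.9% for Prdx1. Levels of these genes are uncertain for that reason. Exons of Hmox2, Nqo2, Mt2, Prdx2, Prdx5, Gss, Keap1, Gclm, Gstm5, Gstz1 and Txnrd2 overlapped exons of a gene on the opposite strand, by 892 bases with Cdip1 for Hmox2 and by 432 bases with Gm45774 for Mt2, and the strand setting of the counting is not given in the sources used here. On the same strand, Gstt3 overlapped Gm20441 by 524 bases and Gclm overlapped Gm6061 by 244 bases. Reads there can be lost under any strand setting.

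Hmox1 was the member that differed most between libraries. Hmox1 (ENSMUSG00000005413.7, chromosome 8, 75093621 to 75100589), the inducible haem oxygenase that breaks haem down to biliverdin, iron and carbon monoxide, was at 1856, 288 and 259 CPM in libraries 1, 2 and 3. Library 1 stood 7.16-fold above library 3, and libraries 2 and 3 lay close together. The mean of 801 CPM was 274 CPM without library 1. In edgeR's goodness-of-fit test for variation between libraries, it was the only member called (adjusted p = 0.000883, range 2.84 on the log2 scale), 1 of 49 tested, beside 0.437% of all 14409 genes. Removal of the trends with GC content and exon length left it 2.28 higher in library 1 than in the mean of the others, and it was still called (edgeR adjusted p = 0.00025, beside 0.772% of all genes called in that fit). It was not called when any library was left out, with edgeR adjusted p = 0.9996 without library 1, 0.0595 without library 2 and 0.190 without library 3; over alternatives that kept all libraries the adjusted p lay between 0.00025 and 0.0195.

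Marker levels moved with Hmox1 in opposite ways. The erythroid list summed to 821 CPM in library 1, against 207 and 340 CPM, with Hbb-bs at 507, 114 and 209 CPM and Hba-a1 at 221, 63.1 and 90.9 CPM; none of its 6 genes was at 0 in a library, and its part in the level of Hmox1 was not tested. Macrophages, which express Hmox1 when they clear red blood cells, were represented by 8 markers, all of them lowest in library 1, where Hmox1 was highest, and their part in its level was not tested either. Hmox2, the constitutive haem oxygenase, was at 159, 121 and 123 CPM, a range of 0.40. Nqo1, the quinone reductase used as a standard Nrf2 target, was at 56.0, 63.1 and 66.9 CPM and thus lowest where Hmox1 was highest. Nqo2 was at 23.8, 48.5 and 54.6 CPM, also lowest in library 1, with a GC content of 42.5%.

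**Figure D3:**
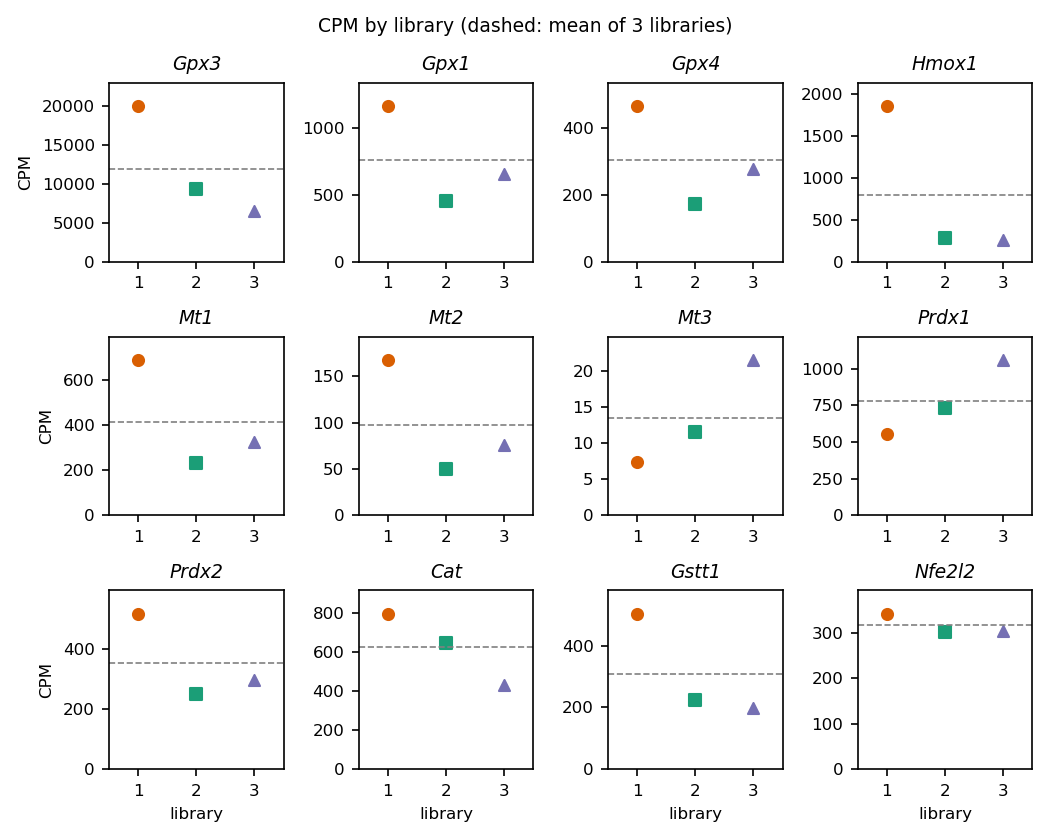
CPM in libraries 1, 2 and 3 (linear axes from 0, a separate scale for each gene) of 12 members, with the mean of the 3 libraries as a dashed line. Library 1 is highest for Gpx3, Gpx1, Gpx4, Hmox1, Mt1 and Mt2 and lowest for Mt3 and Prdx1, and the points of Nfe2l2 lie between 303 and 343 CPM.

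Among the metallothioneins, Mt1 and Mt2 had 1 library order and Mt3 another. Mt1 (ENSMUSG00000031765.7, chromosome 8, 94179082 to 94180327) reached 687, 231 and 323 CPM in libraries 1, 2 and 3, and Mt2 (ENSMUSG00000031762.6, chromosome 8, 94172664 to 94173568), its neighbour on the same strand, reached 168, 50.3 and 76.0 CPM. Library 1 was highest and library 2 lowest for both, the mean of Mt2 was 98.0 CPM with library 1 and 63.1 CPM without it, and the ratio of Mt1 to Mt2 per kilobase was 1.93, 2.17 and 2.01. Mt3, the form enriched in brain, was at 7.38, 11.6 and 21.6 CPM, lowest in library 1 and highest in library 3. Mt2 exceeded Mt3 41.2-fold per kilobase in library 1 but 7.86-fold and 6.39-fold in libraries 2 and 3. The size of these per-kilobase ratios depends on the length used. The union of exons is 1246 bases for Mt1, 588 for Mt2 and 1066 for Mt3. Their longest transcripts have 1085, 511 and 536 bases. Mt4, a gene of squamous epithelia, had no count. The Mt3 transcript had the highest GC content of the members past the filter, 62.3%, so its low value in library 1 ran against the trend for all genes. The high values of Mt1 and Mt2 ran with it. Library 1 differed from the mean of the others by 1.33, 1.43 and -1.01 for Mt1, Mt2 and Mt3 on the log2(CPM + 1) scale. With the trends of GC content and exon length removed, the differences were 0.75, 0.50 and -1.80. Several marker lists were highest in library 3, as Mt3 was: all 6 astrocyte markers (sums of 65.3, 53.8 and 105 CPM), all 8 macrophage, all 6 mural and all 5 Schwann cell markers, and 5 of 6 choroid plexus markers. Their part in the level of Mt3 was not tested.

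Promoters of Mt1, Mt2 and Mt3 are shown because the first pair moved together and the last did not. They were searched on both strands for the core of the metal response element bound by Mtf1 (TGCACNC or TGCGCNC) and that of the antioxidant response element bound by Nrf2 (TGACNNNGC). Sequences are the 250 bases before the RefSeq start on GRCm38.p6, all on the plus strand of chromosome 8, at chr8:94178839-94179088 for Mt1, chr8:94172368-94172617 for Mt2 and chr8:94152357-94152606 for Mt3. Capitals mark matches.
Mt1: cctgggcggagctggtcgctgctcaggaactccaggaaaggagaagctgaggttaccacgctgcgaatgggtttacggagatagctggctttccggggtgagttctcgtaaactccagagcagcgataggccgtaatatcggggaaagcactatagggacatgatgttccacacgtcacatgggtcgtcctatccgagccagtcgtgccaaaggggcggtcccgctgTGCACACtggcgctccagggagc
Mt2: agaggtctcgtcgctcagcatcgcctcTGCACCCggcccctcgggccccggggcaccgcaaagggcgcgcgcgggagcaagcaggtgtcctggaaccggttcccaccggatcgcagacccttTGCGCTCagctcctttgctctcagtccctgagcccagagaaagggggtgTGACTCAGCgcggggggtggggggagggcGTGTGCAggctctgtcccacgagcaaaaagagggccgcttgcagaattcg
Mt3: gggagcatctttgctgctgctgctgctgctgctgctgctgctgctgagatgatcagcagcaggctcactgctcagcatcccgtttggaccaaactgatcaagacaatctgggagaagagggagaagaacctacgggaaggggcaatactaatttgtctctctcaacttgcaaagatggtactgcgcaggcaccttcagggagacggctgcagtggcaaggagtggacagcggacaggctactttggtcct
Counting also the 50 bases after the start, the metal response core stood 3 times in Mt1, 4 times in Mt2 and 1 time in Mt3. At least 1 match was present in 25.7% of 32851 RefSeq promoter windows of that length and at least 3 in 1.97%. The antioxidant response core stood 1 time in Mt2 (TGACTCAGC, 79 to 71 bases before the start) and in neither of the others, and was present in 12.4% of all windows. Windows were found for 50 of the 57 members, and 9 of their 66 windows (13.6%) held the antioxidant response core, those of Mt2, Nfe2l2, Prdx1, Gclm, Sod1, Gsta3, Gstm5, Gstm7 and Txnrd1. The metal response core stood in 20 of the 66 (30.3%). Hmox1 had no entry. A match is a description of letters and not of a bound site.

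Across the members past the filter, library 1 was highest for 31 of 49 (63.3%), beside 39.6% of all tested genes. Library 2 was highest for 5 members and library 3 for 13, beside 32.8% and 27.6% of all. Library 1 was lowest for 13, library 2 for 25 and library 3 for 11, beside 40.4%, 32.3% and 27.2% of all. These members were short, with a median exon length of 2106 bases against 4295, and their median GC content was 50.4% against 49.8%. The median difference of library 1 from the mean of the others was 0.39 on the log2(CPM + 1) scale for them and -0.0048 over all tested genes. With the GC content and length trends removed it was 0.19 and -0.0071, and library 1 was highest for 26 of 49, beside 37.7% of all genes. An unadjusted p below 0.05 in the edgeR test was reached by 7 of 49 members (14.3%), namely Gpx3, Gsta3, Gstt1, Gstt2, Hmox1, Mt1 and Mt2, beside 7.04% of all tested genes. That list depended on the fit. With trends removed the 7 were Gss, Gsta3, Gsto1, Gstt2, Hmox1, Mt3 and Sod1, beside 948 of 14375 genes. It held 3 members with plain library totals, beside 1056 of 14409 genes, and 2 with a common dispersion, beside 1125 of 14409. After trend removal edgeR called Gsta3 besides Hmox1 (adjusted p = 0.00571, between 0.00571 and 0.9996 over alternatives), a gene of low GC content (40.4%) with 195, 70 and 81 counts in libraries 1, 2 and 3. Gpx3 was called under none of the alternatives, with edgeR adjusted p between 0.497 and 0.9996.

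**Figure D4:**
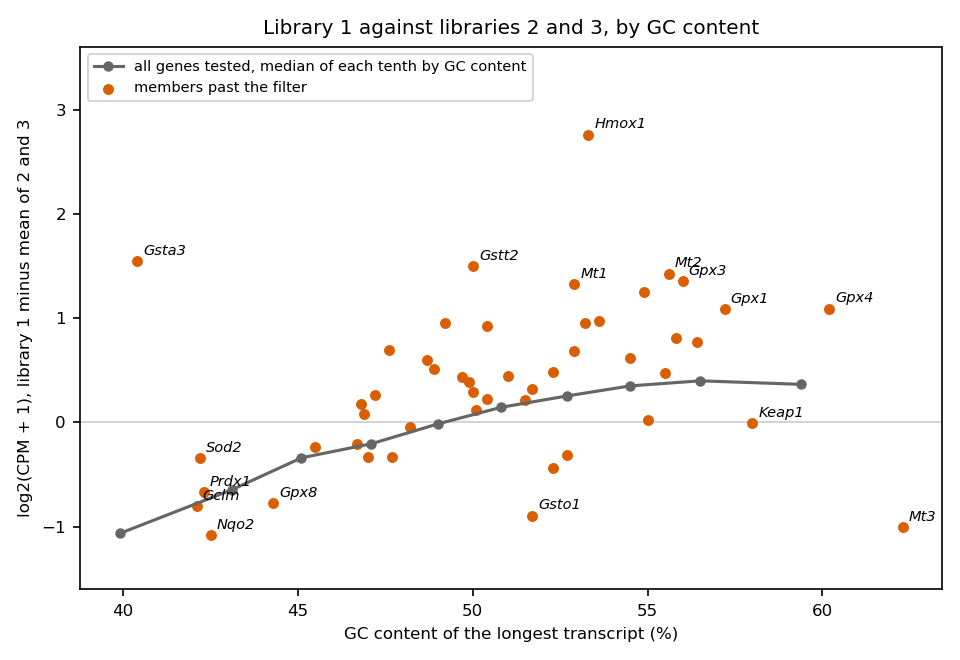
Difference of library 1 from the mean of libraries 2 and 3 on the log2(CPM + 1) scale against GC content (%), for the 49 members past the filter (points) and as medians of 10 groups of similar size of all tested genes (line). Hmox1 has the highest value, 2.76, Gsta3, at 1.55, also lies far above the line, and Mt3, at -1.01, lies below it.

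Other genes of the pathway were taken from lists of textbook membership, whose counts stand beside 0.437% of all tested genes called and 7.04% at an unadjusted p below 0.05. Of 17 further Nrf2 targets all were tested and 0 were called by edgeR, with 1, Ftl1, at an unadjusted p below 0.05. The most abundant were the ferritin light chain Ftl1 at 6229, 2078 and 2611 CPM, the heavy chain Fth1 at 1821, 1571 and 2569 CPM, and the autophagy receptor Sqstm1 at 573, 472 and 583 CPM. Ftl1 was highest in library 1, as Hmox1 was, while Fth1 and Sqstm1 were highest in library 3. Among 10 partners and opponents of Nrf2, 9 were tested, 0 were called and 1 had an unadjusted p below 0.05, Cul3 (7.48, 35.3 and 31.0 CPM), named after its values were seen. GC contents were 58.1% for Ftl1, 50% for Fth1, 54% for Sqstm1 and 38.5% for Cul3. The part of the GC content trend in their library orders was not tested. Nfe2l1, the related factor Nrf1, was at 278 ± 52.4 CPM, the ubiquitin ligase component Btrc at 112 ± 27.7 CPM and the small Maf protein gene Mafg at 48.5 ± 23.2 CPM (SD, n = 3).

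Further glutathione enzymes, 25 genes of which 23 were tested, gave 0 calls and 0 unadjusted values below 0.05. Ptges, a prostaglandin E synthase that uses glutathione, led at 523, 243 and 311 CPM in libraries 1, 2 and 3. Slc3a2, the heavy chain of amino acid transporters, was at 167 ± 48.8 CPM and the esterase Esd at 120 ± 19.1 CPM (SD, n = 3). The 9 other thioredoxin genes gave 0 calls and 1 unadjusted value below 0.05, for Srxn1 (57.9, 48.8 and 165 CPM), named after its values were seen. Txnip, the thioredoxin inhibitor, was at 1598, 1104 and 1067 CPM, mitochondrial Txn2 at 319, 171 and 212 CPM, and the methionine sulfoxide reductase Msrb3 at 51.5, 94.3 and 130 CPM. Library 1 was highest for Txnip and Txn2 and lowest for Msrb3. Transcripts of Txnip, Txn2 and Msrb3 had GC contents of 48.3%, 53.5% and 45.6%.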

How the data were processed

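RNA of sorted pia-enriched cells from vehicle-treated mice was amplified with SMART-Seq v4 and sequenced, per the labels' protocols. The deposited values were raw counts per gene for 3 libraries (whole numbers with the counter's own rows, although the labels name a normalized table); HTSeq 0.5.3, DESeq2 1.22.1 and the build mm10 are listed in the submitters' processing notes without a role. The aligner, annotation release and strand setting are not given in the sources used here. Gene rows held 54.4%, 60.9% and 60.4% of the sum of all rows in libraries 1, 2 and 3, and rows for reads of no gene were left out. All 57 members matched GENCODE M21 (GRCm38), which gave positions, exon length (union of exons) and GC content (longest transcript); RefSeq (GRCm38.p6) gave promoters.

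TMM factors from edgeR 4.0.16 (R 4.3.3) scaled the libraries, and filterByExpr at a minimum count of 10 kept 14409 genes. With 1 group the quasi-likelihood test has no contrast, so variation between libraries was tested by goodness of fit in edgeR, using the trended dispersion, with Benjamini-Hochberg adjustment over all genes and a threshold of 0.05; it was checked on simulated data. Intervals and floors cover counting error only.

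Members and lists were chosen with earlier results of these data known. Members described in full were those at a mean of 100 CPM or more, those called, the 2 most abundant of each role class and the 5 with the largest range, and of each other list the 3 most abundant genes; other members are given as levels. Alternatives were other scalings, filters and dispersions, trend removal, and each library left out.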

Additional observations from a re-analysis of the deposited data

Results flagged for a closer look

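The count table holds reads given to no gene, a signal outside the measurements used above and larger than a count of 0 allows. Percentages are of the sum of all rows in a library. Whether a read aligned to several places was entered once or more is not given in the sources used here. As means of 3 libraries, 16.5% of that sum was for reads aligned to several places and 14.7% for reads not aligned. Reads outside annotated genes made up 8.89% and reads shared by genes 1.35%. Reads not aligned made up 20.1%, 10.7% and 13.2% of libraries 1, 2 and 3, and those outside genes 7.20%, 11.8% and 7.68%. Reads aligned to several places made up 16.9%, 15.3% and 17.4%, and those shared by genes 1.39%, 1.35% and 1.31%. Genes with near copies, such as Gpx4, Gstp1, Gstp2 and Gsta1, and genes with overlapping neighbours, such as Hmox2 and Mt2, can lose reads to these classes; how many was not tested.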

How the results depend on the processing

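Other scalings moved the mean CPM of no named member by over 1.5 times. Without library 1 the mean fell from 801 to 274 CPM for Hmox1, from 5.11 to 2.74 CPM for Gsta3, from 98.0 to 63.1 CPM for Mt2 and from 11953 to 7944 CPM for Gpx3, and no other omission moved a named member by over 1.5 times. The members at 1 CPM or more (49) and at 100 CPM or more (24) stayed within 1.5 times under every alternative run, the latter between 21 and 25. The share of gene counts held by members (1.99%) was 3.34% after division by exon length, which favours short genes, and between 1.52% and 2.29% when each replicate was left out. The count of members called variable (1) was 2 with GC content and exon length trends removed; the cause was not tested. It was 0 by edgeR without library 1, without library 2 and without library 3, fits with fewer samples, where 2, 3 and 5 of 49 members had an unadjusted p below 0.05, beside 867 of 15460, 786 of 14610 and 860 of 14702 genes. The count over all genes (63) was 134 with no filter on low counts, 181 when genes needed a mean count of 10, where 25083 and 16392 genes were tested, 111 with trends removed, and between 12 and 28 when each replicate was left out. Removal of the trends for the count of members highest in library 1 was chosen after seeing the data. No paired analysis was possible because there is only 1 group to compare. Depth limited the low members: Gstt4, Gstm3, Gsta1 and Gsta2 had at most 9 counts in a library, and levels below 0.152 CPM in library 1 could not be told from 0.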

Other observations

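Selenoprotein genes, which share with Gpx1, Gpx3 and Gpx4 the need for selenocysteine, ranged widely in level. Here and below, counts stand beside 0.437% of all tested genes called and 7.04% at an unadjusted p below 0.05. Of 18 genes for selenoproteins and their synthesis, 17 were tested, 0 were called by edgeR and 2, Selenom and Selenow, had an unadjusted p below 0.05. Selenop, the secreted selenium carrier, was at 1560, 1633 and 1309 CPM in libraries 1, 2 and 3. Selenof was at 363, 704 and 794 CPM, lowest in library 1, and Selenom at 723, 265 and 323 CPM, highest there. The Selenof and Selenom transcripts had GC contents of 44% and 57.4%. Among factors that make or insert selenocysteine, Secisbp2 was at 20.1 ± 3.43 CPM, Eefsec at 10.1 ± 2.37 CPM (SD, n = 3), and Sephs2 was at 3.59, 4.70 and 6.71 CPM, all named after their values were seen, as was Selenow.

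Genes of metal handling (11, of which 9 were tested) gave 0 calls by edgeR and 1 unadjusted p below 0.05 (Atox1). Ceruloplasmin (Cp), a copper-carrying ferroxidase, was at 399, 668 and 708 CPM, the copper chaperone Atox1 at 302, 86.8 and 132 CPM, and the zinc and iron importer Slc39a14 at 125 ± 17.9 CPM (SD, n = 3). Atox1 had the library order of Mt1 and Mt2. Its transcript had a GC content of 59.3%, and that of Cp 41.7%. Mtf1, the zinc-sensing factor that induces metallothioneins, was at 44.1, 30.4 and 31.4 CPM and was named after its values were seen. Genes that produce reactive oxygen (13, of which 7 were tested) gave 0 calls and 3 unadjusted values below 0.05. Xdh was at 211, 209 and 158 CPM, Cyba at 338, 102 and 137 CPM, and Maoa at 32.1, 51.1 and 61.6 CPM. The 3 genes were Cyba, Maob (2.88, 21.6 and 26.4 CPM) and Nox4 (1.31, 10.8 and 9.52 CPM), the last pair named after their values were seen and both lowest in library 1. Transcripts of Cyba, Maob and Nox4 had GC contents of 59.3%, 45.3% and 37.9%. The part of the GC content trend in the library orders of genes outside the members was not tested. The phagocyte oxidase subunit Cybb, named after its values were seen, had no count in library 1 and was at 4.50 and 9.79 CPM in libraries 2 and 3, where the macrophage markers were higher.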
